A study of Saccharomyces cerevisiae with 15 samples.

Results

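The messenger RNAs described here encode proteins of the wall of budding yeast, Saccharomyces cerevisiae, and the enzymes that build and remodel it. The members are 37 named genes: glycoproteins fixed in the wall, enzymes that cut and rejoin its polysaccharides, the septum and daughter separation set, flocculins, wall proteases and 3 enzymes of polysaccharide synthesis. A member was read from a probe set (the group of short array oligonucleotides that reports 1 transcript) whose annotation names that gene alone, and from the one with the highest mean signal where there were several. All 37 were found and all 37 passed the filter on low signal, out of 5656 genes measured and 5384 tested. The series compared 5 amino acids as the sole nitrogen source of the prototrophic haploid strain CEN.PK113-7D (MATa), grown with aeration in chemostats, vessels in which the feed of a limiting nutrient sets the growth rate. The groups were asparagine at 5.0 g/l, proline at 8.8 g/l, leucine at 10.0 g/l, phenylalanine at 5.0 g/l and methionine at 11.3 g/l, with 3 arrays each. All 15 samples shared glucose limitation (7.5 g/l in the feed), potassium sulfate at 6.6 g/l, pH 5.0, 30 °C and dilution at 0.10 per hour. The series sets asparagine as a preferred source against the others, and it is the reference below.

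The yeast wall is a mesh of beta-1,3-glucan with beta-1,6-glucan and a little chitin, covered by an outer layer of mannose-rich glycoproteins. Many of these mannoproteins are first tethered to the plasma membrane by a glycosylphosphatidylinositol (GPI) anchor and then moved onto beta-1,6-glucan, whereas the Pir proteins are bound to beta-1,3-glucan. Transglycosylases such as the Gas and Crh enzymes extend and cross-link the polymers, glucanases and chitinase loosen them, and a daughter cell cuts the septum open with enzymes that it makes itself. The cell wall integrity pathway, which runs from membrane sensors to the MAP kinase Slt2, is known to turn on several wall genes under wall stress.

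The signal of a probe set is a linear brightness that the authors had already scaled to a nearly equal array mean. Median signals ran from 38.2, on phenylalanine array 3, to 55.1, and the median of all tested probe sets lay 0.16 below asparagine with phenylalanine and 0.03 to 0.09 below with the other sources (log2). The 3′/5′ ratio of the actin probe sets, a measure of how whole the RNA was, averaged 2.81 ± 0.697 with phenylalanine and 2.77 ± 0.797 with asparagine, and less with the others, at 2.11 ± 0.285 (leucine), 1.90 ± 0.427 (proline) and 1.76 ± 0.103 (methionine; SD, n = 3, as in all means below). The same ratio of SPT15 was 4.45 ± 0.264 with asparagine and 2.99 ± 1.10 with phenylalanine. The ribosomal RNA control signal exceeded 40 on 5 arrays, proline 2 and 3, leucine 3, phenylalanine 3 and methionine 2. The scanner record of phenylalanine array 1 marks it as a repeat run. The labels speak of triplicates without saying whether each was its own culture, so the p-values below rest on sample spread that could be technical. In bulk RNA, a lower level in every cell and fewer cells that make a transcript cannot be told apart. All 7 MATa genes checked passed the signal filter, as did the 4 MATalpha genes on the array. Source means were 1209 to 3134 for the a-factor gene MFA1 and 101 to 292 for the receptor gene STE2. They were 705 to 2247 for MFA2, 104 to 487 for BAR1 and 134.5 to 191 for AGA2, and lower for STE6 (60.3 to 183) and ASG7 (14.6 to 31.4). With methionine 5 of the 7 MATa genes were called higher than with asparagine, as were 14.4% of all tested probe sets. Of 4 MATalpha genes, source means were 17.3 to 34.2 for STE3, 17.7 to 53.5 for MF(ALPHA)1, 5.70 to 10.2 for MF(ALPHA)2 and 72.2 to 129.9 for SAG1, beside a 25th percentile of 10 over all signals.

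Most wall genes differed little between nitrogen sources, and a few wall protein genes differed many-fold. The moderated F test of limma over the 5 sources passed 22 of 37 members (59.5%) at an adjusted p of 0.05, where 52.3% of all tested probe sets passed, so the share was near that of the whole array. The highest and lowest source means of a member were 1.49-fold apart at the median, against 1.66-fold over all tested probe sets. Mean signals of members ran from 37.4 (FLO10) to 5723 (CCW12), beside array medians of 38.2 to 55.1. Members and all tested probe sets were not matched for signal, so these spans are not directly comparable. Only 7 members combined a pass with a span of at least 2-fold (18.9%, against 24.5% of all tested probe sets), and these were HPF1, CWP1, SED1, PIR3, PST1, YPS1 and YPS3. The 15 members that did not pass included CCW12, 3 of 4 Pir genes, 3 of 5 septum genes, and KRE6 and CHS3. The lowest source mean was that of leucine for 11 members and of methionine for 10, and the highest was that of proline for 11 and of phenylalanine for 11. These counts include the members that did not pass, and the same counts over all tested probe sets were not taken.

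**Figure D1:**
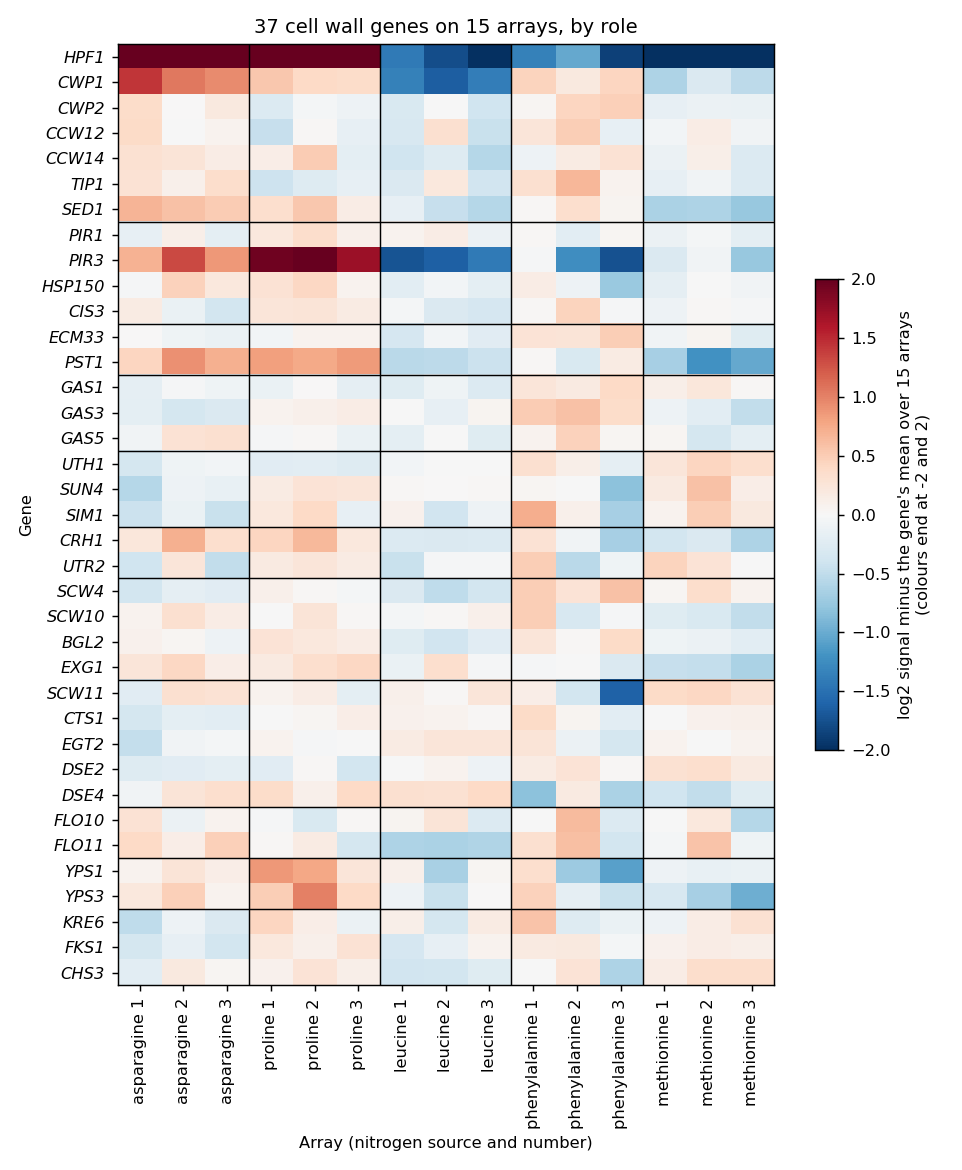
Log2 signal of the 37 wall genes (rows, grouped by role between black lines) on the 15 arrays (columns), each minus the gene's mean over all arrays, with colours ending at -2 and 2. HPF1, CWP1, SED1, PIR3 and PST1 are red with asparagine or proline and blue with leucine or methionine, while most other rows stay pale.

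HPF1 (YOL155C, chromosome XV), a heavily glycosylated mannoprotein known for reducing protein haze in wine, had the widest span of any member, 95.7-fold between source means. Its signals were 2429.8, 1522 and 1688 on the 3 asparagine arrays and 639, 590.3 and 732 with proline. They were 48.5, 37.9 and 18.2 with leucine, 50.5, 63.9 and 35.6 with phenylalanine and 25.2, 15.7 and 18.0 with methionine. No array of these last 3 sources came near any asparagine or proline array, and the asparagine and proline arrays did not overlap either. Against asparagine, HPF1 fell by 1.50 ± 0.31 (adjusted p = 0.0063) on the log2 scale with proline (limma, difference ± SE). It fell by 5.84 ± 0.31 (adjusted p = 2.5e-09) in leucine cultures, fell by 5.24 ± 0.31 (adjusted p = 1.3e-08) in phenylalanine cultures and fell by 6.58 ± 0.31 (adjusted p = 3.2e-10) in methionine cultures. Among the 3 low sources, methionine lay below phenylalanine (log2 difference -1.34 ± 0.31, adjusted p = 0.0074), and neither of these passed the test against leucine (adjusted p = 0.23 and 0.11). A second probe set that also names CSS1, and so was not used as HPF1, averaged 1213 ± 218 (asparagine), 461 ± 22.3 (proline), 27.8 ± 19.0 (leucine), 26.8 ± 9.66 (phenylalanine) and 14.4 ± 1.07 (methionine).

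CWP1 (YKL096W), a GPI wall mannoprotein found at birth scars, spanned 6.08-fold. It read 379.6, 289.9 and 269 with asparagine, 203, 186 and 181 with proline and 192, 159.8 and 189.8 with phenylalanine. It read 91.8, 115 and 97.5 with methionine and 55.1, 44.7 and 53.5 with leucine. All asparagine arrays were above all others, proline and phenylalanine overlapped, and the leucine arrays were below every other. CWP1 fell by 0.71 ± 0.15 (adjusted p = 0.0077) with proline, fell by 0.78 ± 0.15 (adjusted p = 0.0017) with phenylalanine, fell by 1.62 ± 0.15 (adjusted p = 1.1e-06) with methionine and fell by 2.60 ± 0.15 (adjusted p = 5.6e-09) with leucine. Unlike HPF1, which was lowest with methionine, CWP1 was lower with leucine than with methionine, and methionine minus leucine was 0.99 ± 0.15, adjusted p = 0.00047. Centring every array on its median left the phenylalanine difference at -0.47 (adjusted p = 0.054).

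SED1 (YDR077W), the major GPI mannoprotein of stationary-phase walls, varied 2.40-fold. Its signals were 2777, 2619 and 2475 with asparagine, 2191, 2522 and 1925 with proline and 1756, 2196 and 1808 with phenylalanine. They were 1542, 1266 and 1164 with leucine and 1118, 1132 and 1024 with methionine. Every methionine array was below every leucine array and every leucine array was below all arrays of the other 3 sources. SED1 fell by 1.00 ± 0.13 (adjusted p = 3.9e-05) with leucine, fell by 1.26 ± 0.13 (adjusted p = 2.7e-06) with methionine and fell by 0.46 ± 0.13 (adjusted p = 0.019) with phenylalanine, and the proline difference of -0.25 did not pass (adjusted p = 0.22). The phenylalanine call was lost on leaving out asparagine array 1, phenylalanine array 1 or phenylalanine array 3 (adjusted p = 0.061, 0.063 and 0.057) and under median centring (difference -0.15, adjusted p = 0.48).

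Of the other 4 mannoproteins, 3 passed the F test with spans under 2-fold. CWP2, a GPI mannoprotein related to Cwp1, averaged 3540.2 ± 431 with asparagine and 2634 ± 395 with leucine and fell by 0.43 ± 0.14 (adjusted p = 0.034) with leucine. That call was lost under 13 of 21 alternatives, with an adjusted p of 0.14 and 0.085 without asparagine array 1 or 3 and of 0.11 and 0.15 without leucine array 1 or 3. CCW14, a wall protein of the inner layer, fell by 0.64 ± 0.16 (adjusted p = 0.009) with leucine, from 1894 ± 98.8 to 1216 ± 131, and without leucine array 3 its adjusted p rounded to 0.05 and did not pass. TIP1, a cold-shock mannoprotein of mother cell walls, fell by 0.53 ± 0.16 (adjusted p = 0.041) with proline, from 4545 ± 417 to 3151 ± 259.8, and averaged 4929 ± 1022 with phenylalanine. The TIP1 call was lost without asparagine array 1 or 3 (adjusted p = 0.11 and 0.16) and without proline array 1, 2 or 3 (0.15, 0.096 and 0.06). CCW12, a small and very abundant wall protein, did not pass the F test. It averaged 6277 ± 929 with asparagine and 4928 ± 821 with proline, and the 95% confidence interval of that log2 difference was -0.78 to 0.07.

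**Figure D2:**
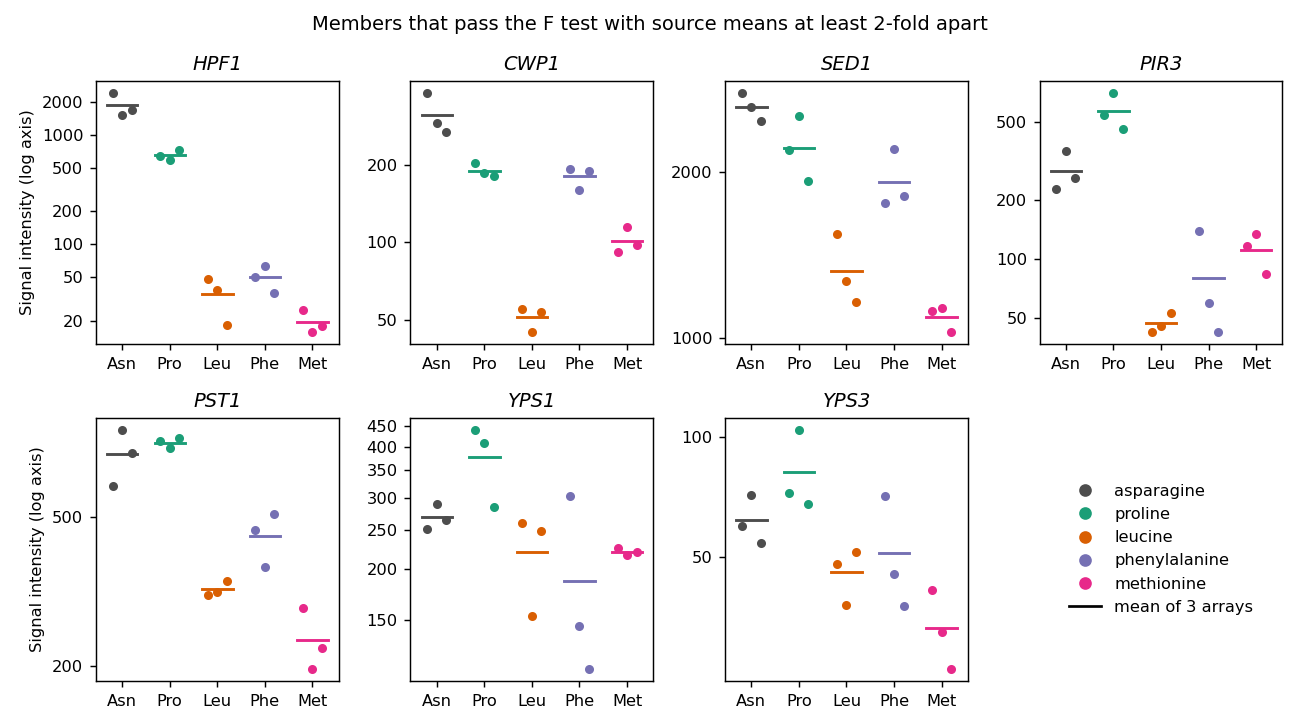
Signal intensity (log axis, a separate range in each panel) of the 7 wall genes that passed the F test with source means at least 2-fold apart, on the 3 arrays (points) of each nitrogen source (Asn asparagine, Pro proline, Leu leucine, Phe phenylalanine, Met methionine), with bars at the mean. HPF1 falls from 1880.0 with asparagine to 19.6 with methionine, PIR3 is highest with proline, and the YPS1 and YPS3 points overlap between most sources.

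The Pir proteins carry internal repeats and attach to beta-1,3-glucan, and 1 of the 4 passed the F test. PIR3 (YKL163W) read 547, 705 and 464 with proline and 229, 356 and 259.6 with asparagine. It read 116, 135 and 84.0 with methionine, 140.0, 59.8 and 42.5 with phenylalanine and 42.8, 45.6 and 53.4 with leucine. Every proline array was above every asparagine array, every asparagine array was above all of the other 9, and the phenylalanine arrays had the largest spread relative to their mean. PIR3 fell by 2.55 ± 0.33 (adjusted p = 3.4e-05) with leucine, fell by 1.96 ± 0.33 (adjusted p = 0.00059) with phenylalanine and fell by 1.33 ± 0.33 (adjusted p = 0.0051) with methionine. The proline difference of 1.03 ± 0.33 narrowly missed the threshold (adjusted p = 0.051) and passed under 9 of 21 alternatives. Leucine minus proline, which uses no asparagine array, was -3.58 ± 0.33, adjusted p = 9.2e-07, and the source means spanned 12.0-fold. PIR1 kept source means between 987 ± 52.6 and 1255 ± 109.8, HSP150 (PIR2), a secreted heat shock glycoprotein, between 374 ± 110.4 and 509.8 ± 60.4, and CIS3 (PIR4) between 636 ± 74.3 and 860.1 ± 26.8. None of these 3 passed the F test, and all 4 Pir genes had their highest mean with proline. For HSP150 the asparagine mean was close to it, at 500 ± 82.6.

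ECM33 and PST1 encode related GPI proteins, of which PST1 is known to be induced by the cell wall integrity pathway and Ecm33 is needed for a normal wall. PST1 (YDR055W) read 607, 856 and 742 with asparagine and 799, 763 and 812 with proline. It read 462, 368 and 509 with phenylalanine, 309.8, 316 and 337 with leucine and 285, 196 and 224 with methionine. Asparagine and proline overlapped, and all arrays of the other 3 sources were below both. PST1 fell by 1.18 ± 0.16 (adjusted p = 4.9e-05) with leucine, fell by 0.72 ± 0.16 (adjusted p = 0.0041) with phenylalanine and fell by 1.65 ± 0.16 (adjusted p = 1.4e-06) with methionine, and its proline difference was 0.12 (adjusted p = 0.68). Median centring left the phenylalanine difference at -0.41 (adjusted p = 0.12). ECM33 rose with phenylalanine, from 1582 ± 83.1 to 2098 ± 193 (log2 difference 0.41 ± 0.11, adjusted p = 0.015), so the pair was called in opposite directions there. The ECM33 call was lost without asparagine array 3 or phenylalanine array 3 (adjusted p = 0.061 and 0.053) and under quantile normalization (difference 0.20, adjusted p = 0.083). A second ECM33 probe set was not called in any comparison against asparagine, although its methionine difference was 0.91. It correlated with the first at 0.04 over the 15 arrays.

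Among the genes of the Gas family, which includes beta-1,3-glucanosyltransferases that lengthen glucan chains, 2 of 3 rose with phenylalanine, as did 7.56% of all tested probe sets. GAS1, the main enzyme of vegetative cells, rose from 1934 ± 100.1 to 2504 ± 191 (log2 difference 0.37 ± 0.10, adjusted p = 0.014), a call lost without asparagine array 1 (adjusted p = 0.052) and under quantile normalization (difference 0.17, adjusted p = 0.21). GAS3, another member of the family, rose from 82.0 ± 4.12 to 139.6 ± 10.5 (0.77 ± 0.13, adjusted p = 0.00059) and kept its call under all 21 alternatives. GAS5 was not called in any comparison, with source means between 848 ± 118 and 1093 ± 183.

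The Sun family proteins Uth1, Sun4 and Sim1 act in the wall and septum, and all 3 had their highest mean with methionine. For SUN4 and SIM1 the proline means were close to the methionine means, at 287 ± 11.1 against 305 ± 54.7 and 329 ± 62.9 against 351 ± 53.9. UTH1 rose from 1652 ± 181 to 2327 ± 146 (0.50 ± 0.12, adjusted p = 0.0046) and was also higher than with proline (0.57 ± 0.12, adjusted p = 0.003). SUN4 rose from 204 ± 34.3 to 305 ± 54.7 (0.58 ± 0.20, adjusted p = 0.033), although its F test did not pass, and the call was lost without asparagine array 1 or methionine array 2 (adjusted p = 0.14 and 0.15). SIM1 was not called, and its methionine difference was 0.58 with a confidence interval of 0.02 to 1.15. With the actin ratio as a covariate, UTH1 and SUN4 no longer passed (adjusted p = 0.094 and 0.29).

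Crh1 and Utr2 cross-link chitin to glucan. CRH1 fell with leucine, phenylalanine and methionine, from 725 ± 133 with asparagine to 439 ± 4.10, 499.8 ± 158 and 399 ± 45.4. The differences were -0.71 ± 0.20, adjusted p = 0.019 with leucine, -0.57 ± 0.20, adjusted p = 0.047 with phenylalanine, where the arrays overlapped, and -0.85 ± 0.20, adjusted p = 0.0036 with methionine, which stood under all 21 alternatives. The leucine call was lost without asparagine array 2 or leucine array 3 (adjusted p = 0.087 and 0.053). The phenylalanine call was lost without asparagine array 2 or 3 (0.18 and 0.085) and without phenylalanine array 2 or 3 (0.051 and 0.21). UTR2 did not pass the F test, and its source means ran from 211 ± 61.8 to 283 ± 43.1.

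The wall glucanases split between sources. SCW4, a glucanase family protein, rose with phenylalanine from 1173 ± 75.6 to 1926 ± 216 (0.71 ± 0.12, adjusted p = 0.00044, kept under all 21 alternatives). With methionine it rose to 1569.9 ± 190.2 (0.42 ± 0.12, adjusted p = 0.01). That methionine call was lost without methionine array 2 (adjusted p = 0.064) and with the actin ratio as a covariate. It was also lost without the arrays of high ribosomal RNA control signal. SCW10, a close relative of SCW4, fell with methionine from 679 ± 59.6 to 473 ± 43.3 (-0.52 ± 0.16, adjusted p = 0.02), although the SCW10 F test did not pass (adjusted p = 0.082). The call was lost without asparagine array 2 or methionine array 3 (adjusted p = 0.069 and 0.08), under median centring (difference -0.32, 0.18) and with the hybridisation control as a covariate (-0.51, 0.06). Its second probe set, also called with methionine, differed by -2.22. EXG1, the major exo-1,3-beta-glucanase, fell with methionine from 599.9 ± 58.1 to 346 ± 22.4 (-0.79 ± 0.14, adjusted p = 0.00037) under all 21 alternatives, and was lower with methionine than with any of the other 4 sources. BGL2, an endo-glucanase that also rejoins chains, was not called against asparagine and was lower with leucine than with proline (-0.50 ± 0.11, adjusted p = 0.0036) and phenylalanine.

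Among the septum genes, whose products free the daughter cell, DSE2 and DSE4 moved in opposite directions. DSE2, a daughter-specific glucanase-like protein, rose from 604 ± 12.1 to 785 ± 67.9 with phenylalanine (0.38 ± 0.11, adjusted p = 0.026) and to 853 ± 46.8 with methionine (0.50 ± 0.11, adjusted p = 0.0031). The methionine call stood under all 21 alternatives, and the phenylalanine call was lost without asparagine array 1, 2 or 3 or phenylalanine array 1 or 2 (adjusted p = 0.052 to 0.065). DSE4, a daughter-specific endo-glucanase, fell from 127 ± 18.4 to 87.6 ± 34.3 with phenylalanine, where the arrays overlapped (-0.60 ± 0.21, adjusted p = 0.045), and to 86.7 ± 7.74 with methionine (-0.55 ± 0.21, adjusted p = 0.047). Leaving out asparagine array 2 or 3 or phenylalanine array 1 or 3 ended the DSE4 phenylalanine call (0.12 to 0.18), and leaving out asparagine array 2 or 3 or any methionine array ended the methionine call (0.06 to 0.15). Quantile normalization, median centring and a fit with a block for the array number each ended both DSE4 calls. The phenylalanine call stood under 9 of 21 alternatives and the methionine call under 8. The chitinase gene CTS1 was not called, although it averaged 1015 ± 60.6 with asparagine and between 1255 ± 58.9 and 1289.9 ± 264 with the other 4 sources. EGT2 and SCW11 were not called against asparagine, and the 3 phenylalanine arrays read 103, 72.9 and 30.7 for SCW11, a daughter-specific glucanase family gene.

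The flocculins are surface adhesins. FLO11, needed for invasive and pseudohyphal growth, fell with leucine, from 48.9 ± 6.05 to 25.1 ± 0.265 (-0.95 ± 0.24, adjusted p = 0.0095), under all 21 alternatives. It was also lower with leucine than with phenylalanine (log2 difference, phenylalanine minus leucine, 0.80 ± 0.24, adjusted p = 0.041) and methionine (methionine minus leucine, 0.77 ± 0.24, adjusted p = 0.038). FLO10 did not pass the F test on the probe set used, with source means between 34.3 ± 4.16 and 41.3 ± 13.9. Another FLO10 probe set, dim at a mean signal of 7.73, passed it (adjusted p = 0.0039). That probe set was called lower with phenylalanine (-1.91) and methionine (-1.76) and correlated with the one used at 0.07. The remaining tested FLO10 probe sets did not pass.

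The yapsins are GPI-anchored aspartic proteases that process wall and surface proteins. YPS1 read 252, 289 and 265 with asparagine, 440.5, 409.7 and 284 with proline and 259.5, 154 and 249 with leucine. It read 302, 145 and 114 with phenylalanine and 226, 217 and 220.1 with methionine. The phenylalanine arrays reached from below to above all methionine arrays, and of 10 pairs of sources only phenylalanine against proline was called (-1.12 ± 0.29, adjusted p = 0.012), with overlapping arrays. YPS3 read 59.9, 71.5 and 54.3 with asparagine, 72.5, 104 and 68.0 with proline and 48.1, 38.0 and 51.6 with leucine. It read 70.9, 45.4 and 37.7 with phenylalanine and 41.3, 32.5 and 26.3 with methionine. All methionine arrays of YPS3 were below all asparagine and proline arrays. YPS3 fell by 0.91 ± 0.24 (adjusted p = 0.0087) with methionine against asparagine, and methionine minus proline was -1.29 ± 0.24, adjusted p = 0.0012.

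Of the synthesis enzymes, FKS1, a catalytic subunit of beta-1,3-glucan synthase, was called higher with 3 sources. It averaged 632 ± 50.9 with asparagine, 887 ± 58.9 with proline (0.49 ± 0.12, adjusted p = 0.014), 836 ± 71.2 with phenylalanine (0.40 ± 0.12, adjusted p = 0.021) and 837 ± 15.4 with methionine (0.41 ± 0.12, adjusted p = 0.013). Its 6 other tested probe sets did not all follow. With phenylalanine 1 of them differed from asparagine by 0.30 and the rest by -1.87 to -0.07. The 6 differences ran from -0.31 to 0.53 with proline and from 0.77 to 1.82 with methionine. Among them 1 was called, with methionine (0.77), and the mean over probe sets gave -0.61 with phenylalanine (adjusted p = 0.31). The proline call was lost without asparagine array 1 or 3 or proline array 1 or 3 (adjusted p = 0.051 to 0.067). The phenylalanine call was lost without asparagine array 1 or 3 or phenylalanine array 1 (0.057 to 0.079), and the methionine call without asparagine array 3, at a value that rounds to 0.05. With the actin ratio or the hybridisation control as a covariate the methionine difference of FKS1 was 0.42 and 0.27 (adjusted p = 0.057 and 0.1) and the proline difference 0.50 and 0.31 (0.063 and 0.17). KRE6, of beta-1,6-glucan synthesis, was not called, with means of 104 ± 14.6 with asparagine and 143 ± 27.6 with proline. CHS3, the catalytic subunit of the main chitin synthase, was not called against asparagine, and was lower with leucine than with methionine (methionine minus leucine, 0.61 ± 0.18, adjusted p = 0.029).

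The members are set here against all tested probe sets, and the 4 comparisons share the 3 asparagine arrays. With proline 1 of 37 members rose (4.61% of all tested probe sets did) and 3 fell (8.72%), with a median log2 difference of 0.10 against -0.08. With leucine 0 rose (9.9%) and 9 fell (11%) by limma, while 2 were higher and 12 lower at an unadjusted p under 0.05, with a median of -0.15 against -0.03. With phenylalanine 6 rose (7.56%) and 7 fell (18.1%), with a median of 0.03 against -0.16. With methionine 5 rose (14.4%) and 10 fell (24.2%), with a median of -0.15 against -0.09. HPF1 and CWP1 were lower with all 4 sources, and SED1, PIR3, PST1 and CRH1 with leucine, phenylalanine and methionine. Asparagine arrays had a higher actin ratio than proline arrays, and a hybridisation control signal of 351 ± 58.2 against 139 ± 28.2. With the actin ratio as a covariate limma called 0 members with proline (5 at an unadjusted p under 0.05), and with the hybridisation control 0 (9 at an unadjusted p under 0.05). The HPF1 and CWP1 differences stayed close to those above: HPF1 was at -1.38 and -1.40 (adjusted p = 0.052 and 0.062) and CWP1 at -0.68 and -0.64 (0.051 and 0.068). The calls of TIP1 and FKS1 were lost as well, and the FKS1 difference was smaller with the hybridisation control. Leaving out asparagine array 1 or 3 or proline array 1 or 3 left 2 proline calls. Methionine arrays also differed from asparagine arrays in actin ratio (1.76 ± 0.103 against 2.77 ± 0.797) and hybridisation control signal (173 ± 15.6 against 351 ± 58.2). With the actin ratio as a covariate the methionine calls of UTH1, SUN4, SCW4, FKS1 and DSE4 were lost. With the hybridisation control those of SUN4, SCW10 and FKS1 were lost. Of the members that rose with methionine, only DSE2 kept its call under both. Without asparagine array 3, 8 members were called with phenylalanine. The SPT15 ratio as a covariate also left 8 there, with TIP1 and YPS1 gained and 7 calls lost. Of these, ECM33 (0.44), GAS1 (0.35), DSE2 (0.44), FKS1 (0.42), SED1 (-0.36) and CRH1 (-0.69) kept differences within 1.5 times those above, with adjusted p of 0.066 to 0.2, and DSE4 was at -0.19 (adjusted p = 0.65). Without leucine array 3, 6 were called with leucine. The split of calls with phenylalanine depended on the scaling: quantile normalization gave 2 higher and 7 lower, and median centring 13 higher and 2 lower, with the median of all tested probe sets at 0.01 and 0.15. Median centring gave 5 higher and 2 lower with proline, 2 and 8 with leucine, and 12 and 8 with methionine, and quantile normalization gave 3 and 2, 1 and 9, and 6 and 10.

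**Figure D3:**
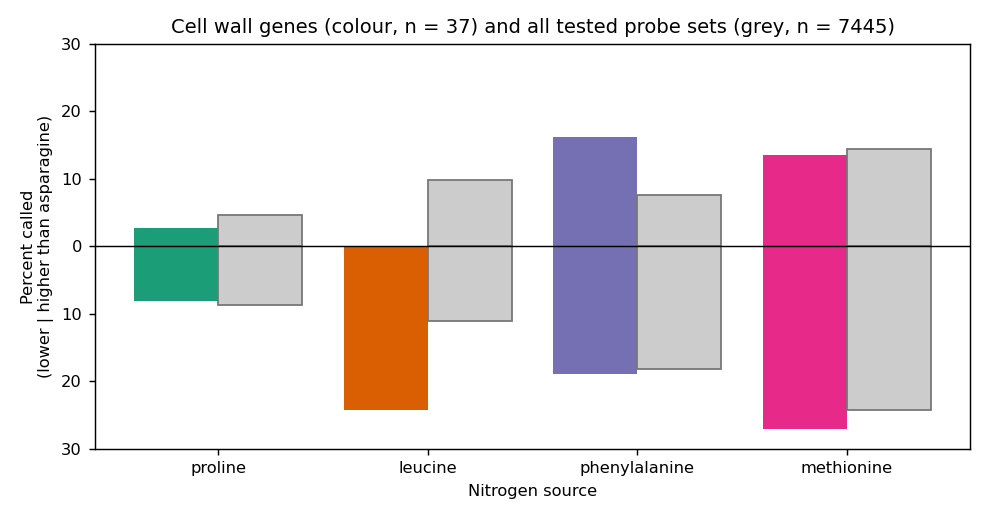
Percent of the 37 wall genes (coloured bars) and of all 7445 tested probe sets (grey bars) called higher (above 0) or lower (below 0) than with asparagine at an adjusted p of 0.05. With leucine no wall gene is called higher and 24.3% are called lower, against 11% of all probe sets.

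**Figure D4:**
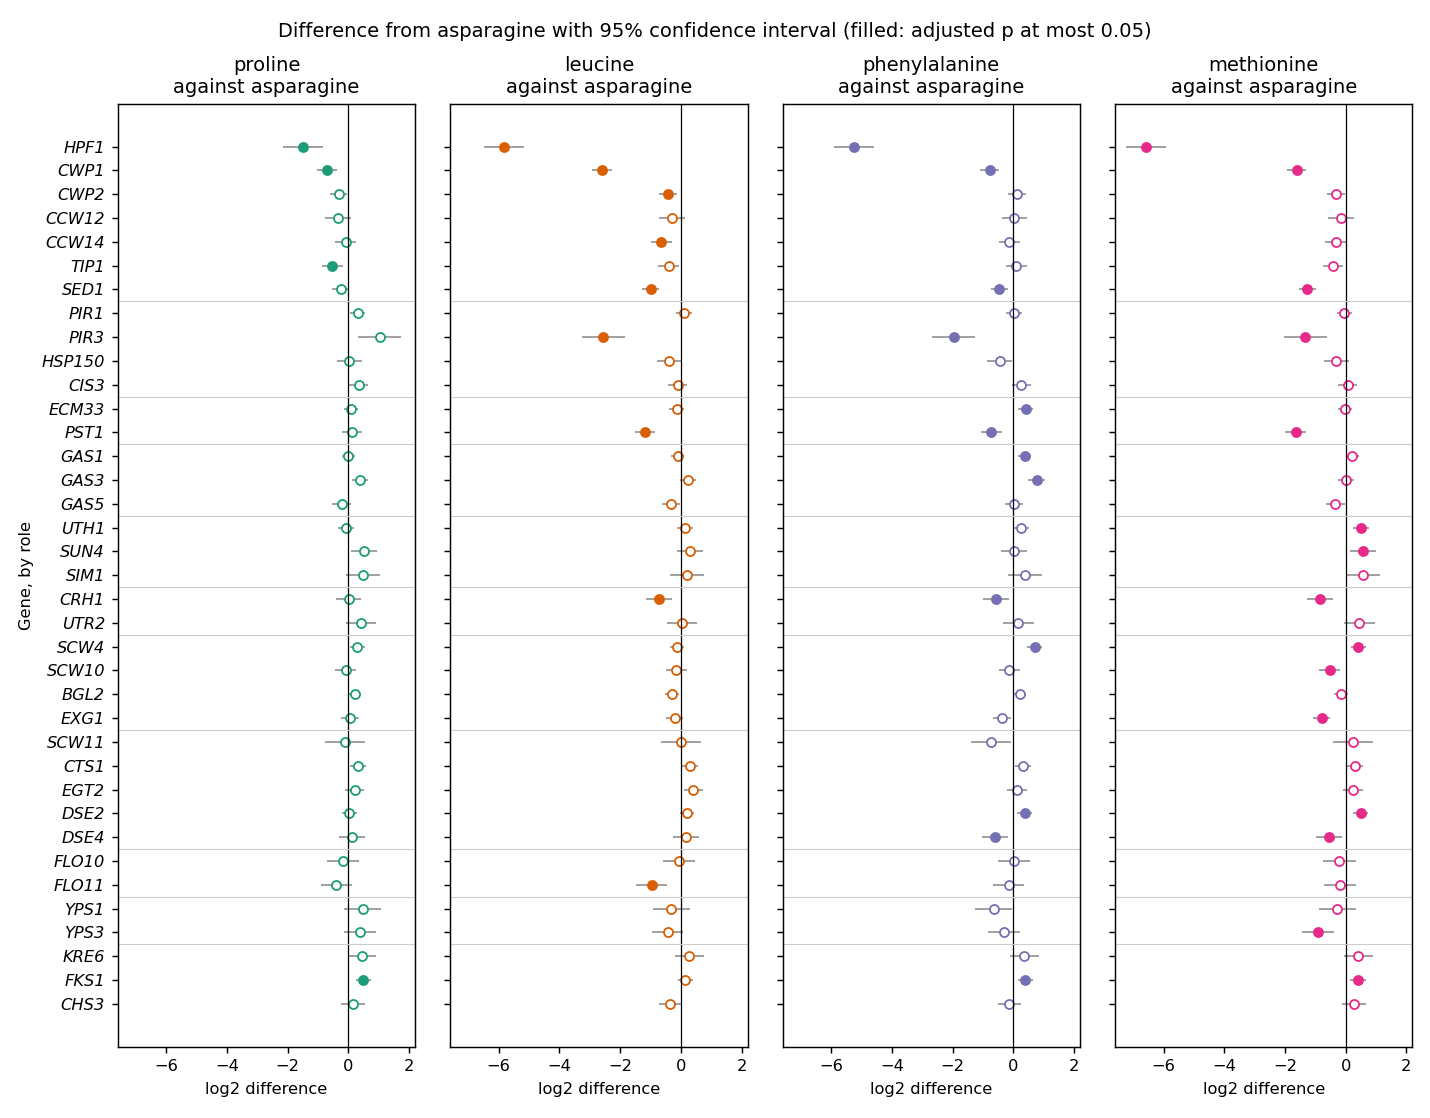
Log2 difference from asparagine of each wall gene (rows by role, grey lines between roles) with its 95% confidence interval, for proline, leucine, phenylalanine and methionine, with filled points where the adjusted p was at most 0.05. HPF1 is the farthest point from 0 in every panel and most intervals of the remodelling enzymes lie within 1 log2 unit of 0.

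Some members sit side by side on their chromosomes in the RefSeq gene order of assembly R64, and neighbours could differ in how their signals varied. CWP2 lies next to CWP1, and within each array the log2 ratio of CWP2 to CWP1 differed from asparagine by 2.17 with leucine, 1.29 with methionine, 0.91 with phenylalanine and 0.38 with proline, where alone the arrays overlapped (exact permutation p = 0.2). PIR1 lies next to PIR3, and their log2 ratio differed by 2.67 with leucine, 1.99 with phenylalanine, 1.29 with methionine and -0.72 with proline. In each of the other 7 the arrays did not overlap, and a two-sided exact permutation test gave p = 0.1, the smallest that 3 against 3 allows. HSP150 and CIS3 are also adjacent, and their log2 ratio differed by -0.71 to -0.27 from asparagine, with overlapping arrays (exact p = 0.2 to 0.4). YPS1 and YPS3 are adjacent too, and their ratio differed by 0.63 with methionine (exact p = 0.1) and by -0.34 to 0.11 with the other sources (exact p = 0.3 to 0.9).

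**Figure D5:**
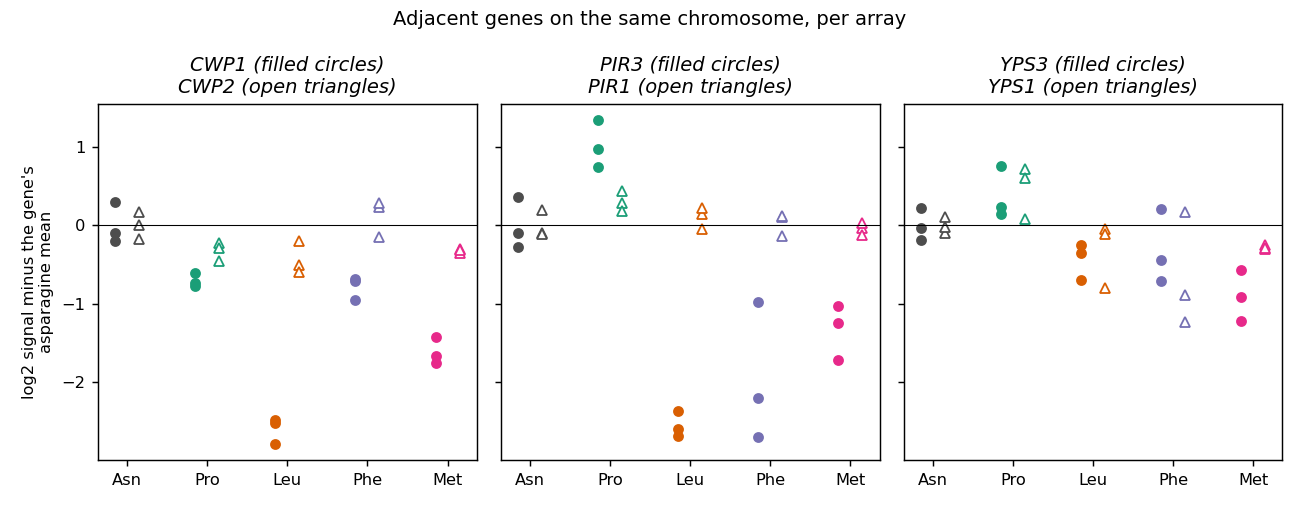
Log2 signal minus the gene's own asparagine mean on each array for 3 pairs of adjacent genes, CWP1 and CWP2, PIR3 and PIR1, and YPS3 and YPS1 (filled circles and open triangles), by nitrogen source. With leucine the CWP1 and PIR3 points lie more than 2 log2 units below 0 while those of CWP2 and PIR1 stay within 1 unit of it.

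For the 3 members with spans of at least 4-fold, the 3 tested genes of best correlation in log2 signal over the 15 arrays, which share the 5 group means, were taken from all 5384 tested genes. For HPF1 they were POT1 (Pearson r = 0.976), YHR138C (0.974) and CRF1 (0.972). For CWP1 they were COX26 (0.955), OM45 (0.940) and SUC2 (0.940), and for PIR3 they were TPH3 (0.975), WTM1 (0.966) and PMC1 (0.960). Among the members themselves, HPF1 correlated at 0.888 with PST1 and 0.886 with SED1, CRH1 at 0.895 with YPS3, GAS1 at 0.872 with SCW4, and GAS1 at -0.817 with DSE4. These values are descriptions of group patterns and carry no test.

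Other genes of the wall pathways were read from wider lists, whose counts stand beside the same shares over all tested probe sets: 52.3% by the F test, 8.72% lower and 4.61% higher with proline, 11% and 9.9% with leucine, 18.1% and 7.56% with phenylalanine, and 24.2% and 14.4% with methionine. The median log2 differences of all tested probe sets were -0.08 (proline), -0.03 (leucine), -0.16 (phenylalanine) and -0.09 (methionine), and list medians follow that order. Of 30 tested genes of cell wall integrity signalling 15 passed the F test, a share near the 52.3%. Of the 30, 2 were lower with proline, 5 lower with leucine, 12 lower (against 18.1%) and 1 higher with phenylalanine, and 7 lower (against 24.2%) and 1 higher with methionine, with medians of -0.05, -0.26, -0.17 and -0.16. SDP1, a phosphatase that acts on Slt2, averaged 64.6 ± 9.81 with asparagine and fell to 16.0 ± 1.62 with leucine (log2 difference -2.01, adjusted p = 1.0e-06), 25.5 ± 5.46 with phenylalanine and 34.0 ± 4.11 with methionine. NCW2, a wall protein gene on that list, fell from 339 ± 19.1 to 116 ± 16.3 with methionine (-1.56, adjusted p = 1.5e-06). BAG7, which encodes a GTPase-activating protein for Rho1, averaged 28.8 ± 4.78 with asparagine and averaged under the 25th percentile (10) with leucine, phenylalanine and methionine.

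Of 13 other glucan synthesis genes 5 passed, against 52.3% of all tested probe sets. With proline 1 rose and 0 fell, with leucine 0 and 1, with phenylalanine 2 and 2, and with methionine 2 and 1, with medians of 0.12, 0.21, 0.14 and 0.06. GSC2, the alternative catalytic subunit to Fks1, fell from 573 ± 27.2 to 413 ± 50.0 with leucine (-0.48, adjusted p = 0.0059), 434 ± 42.6 with phenylalanine (-0.41, 0.017) and 372 ± 18.1 with methionine (-0.62, 0.00055). SKN1, a relative of KRE6, rose with proline from 163 ± 29.2 to 299.5 ± 72.9 (0.86, adjusted p = 0.028), and CWH41, a glucosidase of the endoplasmic reticulum, rose with phenylalanine (0.68, adjusted p = 0.042). Of 16 other chitin genes 11 passed, again against 52.3%. With proline 0 were called, with leucine 0 rose and 3 fell, with phenylalanine 2 and 3, and with methionine 1 and 5, with medians of 0.04, -0.17, -0.10 and -0.34. CHS7, which brings Chs3 out of the endoplasmic reticulum, fell with leucine (-0.80, adjusted p = 0.00021) and methionine (-0.70, 0.00046), as did PCM1, of the synthesis of the chitin precursor (-0.43 and -0.52, adjusted p = 0.014 and 0.003). CDA1, a chitin deacetylase gene, fell with leucine (-0.94, adjusted p = 0.0041).

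Of 33 other tested wall protein genes 21 passed, against 52.3% of all tested probe sets. With leucine 9 fell (against 11%) and 3 rose (against 9.9%), with proline 4 and 3, with phenylalanine 12 and 5, and with methionine 9 and 7, with medians of -0.07, -0.33, -0.28 and -0.26. YGP1, a secreted glycoprotein, averaged 1572 ± 86.5 (asparagine), 2133 ± 217 (proline), 101 ± 4.76 (leucine), 848 ± 302 (phenylalanine) and 1058 ± 87.5 (methionine), and its leucine difference was -3.96 (adjusted p = 4.8e-10). SPI1, a GPI wall protein, fell with leucine (-1.22, adjusted p = 6.8e-06) and rose with proline (1.01, 0.00022) and methionine (0.80, 0.0003). FIT2, a mannoprotein that helps take up iron bound to siderophores, was lower with proline and higher with the other 3 sources: it averaged 296 ± 196 with asparagine and 88.9 ± 2.77 with proline, and 1636 ± 33.9 with leucine, 1919 ± 153 with phenylalanine and 1068 ± 315 with methionine. All 4 FIT2 differences passed, at -1.54, 2.66, 2.89 and 2.01 in that order of sources.

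Of 20 tested regulators of filamentous growth 7 passed, a smaller share than the 52.3% of all tested probe sets. With proline 0 rose and 1 fell, with leucine 1 and 3, with phenylalanine 2 and 2, and with methionine 1 and 5, with medians of -0.13, -0.06, 0.09 and -0.07. PHD1, a transcription factor that promotes pseudohyphal growth, rose from 98.4 ± 11.2 to 313 ± 26.9 with leucine (1.67, adjusted p = 9.4e-07), 493 ± 111 with phenylalanine and 281 ± 30.3 with methionine, while FLO11 fell with leucine and was not called with the other sources. NRG2, a repressor, fell from 377 ± 40.2 to 111 ± 10.0 with leucine (-1.77, adjusted p = 5.1e-06), 100.1 ± 24.6 with phenylalanine and 99.7 ± 24.1 with methionine. TPK2, a catalytic subunit of protein kinase A, fell with leucine (-0.65, adjusted p = 0.00043) and methionine (-0.73, 0.00011). Of 9 tested regulators of daughter separation 3 passed, MOB2, HYM1 and AMN1. With methionine 4 fell (against 24.2%) and 1 rose (against 14.4%): MOB2 (-0.44, adjusted p = 0.045), HYM1 (-0.54, 0.03), KIC1 and ASH1 were lower and AMN1 was higher (0.83, 0.02). With leucine 1 fell, with phenylalanine 2 fell, and with proline 0 were called, with medians of -0.01, -0.10, -0.16 and -0.17.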

How the data were processed

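Messenger RNA was measured on 15 single-colour Affymetrix YG_S98 arrays, 3 for each of 5 nitrogen sources. The authors deposited linear signal intensities for each probe set, and the submitters' processing notes name MAS5, with the version and the target of its scaling not given in the sources used here. Each array's mean, trimmed by 2% at both ends, was 150.09 to 150.15, so a global scaling had been applied. Of 9335 probe sets 60 controls were removed. The platform annotation names 1 gene for 6504 of the other 9275, and all 6504 matched RefSeq (R64). Promoter and protein sequences were not analysed here.

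Signals under 2.1 (the 10th percentile) were set to it before taking log2, so folds understate changes of dim probe sets. Tests covered the 7445 probe sets (80.3%) that exceeded their array's 25th percentile on at least 3 arrays. A model with 1 mean for each source was fitted to the 15 arrays with limma 3.58.1 (R 4.3.3; eBayes with a variance trend), with two-sided tests, Benjamini-Hochberg adjustment over all probe sets within each comparison, and a threshold of 0.05. The fit was tested on simulated data. The labels gave every array its group, and all arrays were kept. Precision is limited by the 3 arrays per source.

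The members, wider lists and tests were chosen with earlier results of these data known. Values on every array are given for members that passed the F test with source means at least 2-fold apart, and up to 3 genes per wider list with the smallest F test p are named. Alternatives were other normalization, floors, filters, covariates and array sets, and 2 were added after seeing the data: leaving out arrays of high ribosomal RNA control signal, and the same alternatives for the wider lists.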

Additional observations from a re-analysis of the deposited data

How the results depend on the processing

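Of 41 calls of a member against asparagine, 19 stood under all 21 alternatives of their comparison: 6 with leucine, 4 with phenylalanine, 9 with methionine and none of the 4 with proline; 1 turned its direction, FKS1 with phenylalanine on averaging its probe sets. Members called with proline numbered 4 as reported, 7 with median centring, 17 with array weights, 0 with the actin ratio and 0 with the hybridisation control signal as a covariate, 1 without the arrays of high ribosomal RNA control signal (which leaves 1 proline array), and 2 to 5 with 1 array left out. Members called with leucine numbered 9, 16 with array weights, and 6 to 10 with 1 array left out. With phenylalanine the count was 13, 8 with the SPT15 3′/5′ ratio as a covariate, 6 with only the arrays of the 2 sources, and 8 to 13 with 1 array left out. With methionine it was 15, and 12 to 16 with 1 array left out. The actin ratio as a covariate ended the methionine calls of UTH1, SUN4, SCW4, FKS1 and DSE4. The F test passed 22 members, 20 to 28 with 1 array left out, and 14 once arrays of high ribosomal RNA control signal were dropped, when 25.6% of all tested probe sets passed. A fit with a replicate block gave 23 members by the F test, and 5 (proline), 9 (leucine), 13 (phenylalanine) and 15 (methionine) against asparagine. It ended 2 calls, those of DSE4 with phenylalanine (adjusted p = 0.051) and methionine (0.052), and added PIR3 with proline, EXG1 with phenylalanine and TIP1 with methionine. The array numbers are not known to pair samples. Deviations correlated above 0.1 in 10 of 30 same-numbered pairs of arrays (median 0.014) and in 12 of 60 different-numbered pairs (median 0.002). Of 15 arrays, 8 correlated best with their own number, and these values do not settle whether the numbers pair samples. Causes of these shifts were not tested. Of the F test counts over the wider lists under alternatives, 209 stayed within 1.5 times the reported count and 23 moved further.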
